A study of Mus musculus with 9 samples.

Results

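The ATP-binding cassette (ABC) transporter genes of subfamilies A to G were examined in 3T3-L1 cells, an established line of mouse embryo fibroblasts with preadipocyte character. Members were the array's gene probes whose gene name read Abc, a subfamily letter from a to g and a number, with or without a final letter. This rule used names alone and found 96 probes for 49 genes, of 27617 genes named on the array. Subfamily A held 15 of these genes, B 10, C 10, D 4, E 1, F 3 and G 6. Of the 49 genes, 32 were measured, meaning that 1 or more of their probes exceeded the scanner software's background test on each of the 3 arrays of some group, and 17 were not.

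The cells were preadipocytes grown in 10% serum and then kept without serum for 48 h. They were left untreated (control) or exposed for 24 h to 70 µM of X-1 or of X-3, both of which the series title describes as derivatives of mangiferin, a plant xanthone glucoside. Each of the 3 groups had 3 one-colour arrays of total RNA. The control was labelled untreated, and no vehicle was named. The series text counts 9 independent experiments, but same-numbered arrays of the 3 groups shared a slide, so the p-values measure the spread between these arrays. All groups shared the cell line, the serum starvation and the undifferentiated state.

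ABC proteins use ATP binding and hydrolysis to move substrates across membranes. ABCA and ABCG proteins mostly handle lipids and sterols, the ABCC group exports organic anions and drug conjugates, ABCB holds both plasma membrane and mitochondrial transporters, and ABCD proteins carry fatty acyl-CoA into peroxisomes or cobalamin out of lysosomes. ABCE and ABCF proteins have no membrane domain and act in translation.

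A level below is the log2 signal of a gene's brightest measured probe minus the 75th percentile of its array, so that 0 marks a probe as bright as that percentile. Levels of different probes are not compared. Differences are on the log2 scale with the standard error (SE) of a limma fit to 16736 genes, and a gene is said to have risen or fallen where the Benjamini-Hochberg adjusted p over all of them was under 0.05. Between 57.9% and 67.1% of the gene spots of an array were well above background. Control, X-1 and X-3 were at positions 1, 2 and 3 on every slide, so position and treatment cannot be told apart, and the scan day of slide 1 differed from that of the others. X-3 replicate 1, on slide 1, stood apart: its median absolute distance from the mean of the other 2 arrays of its group was 0.359 log2, against 0.123 to 0.217 on the other 8 arrays. All 10 preadipocyte and fibroblast markers were measured. Of the markers of other cells, 2 of 9 for adipocytes (Fabp4 and Lipe), 4 of 7 for macrophages and leukocytes, 2 of 6 for epithelium (Krt8 and Krt18) and 2 of 5 for endothelium were measured. Not measured were the defining markers Adipoq and Plin1 of adipocytes, Ptprc and Adgre1 of leukocytes, Epcam and Cdh1 of epithelium and Pecam1 and Cdh5 of endothelium. The summed linear level of the epithelial markers was 0.0822 to 0.0995 on control, 0.275 to 0.348 on X-1 and 0.416 to 0.497 on X-3 arrays. That of the 4 macrophage markers was 3.09 to 3.37, 3.25 to 3.87 and 3.86 to 4.41 in the same order. Adipocyte markers summed to 0.675 to 0.762, 0.389 to 0.531 and 0.433 to 0.509, and endothelial markers to 0.140 to 0.158, 0.103 to 0.138 and 0.134 to 0.141. Their part in the results below was not tested.

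The 17 genes without a measured probe were Abca4, Abca6, Abca12, Abca13, Abca14, Abca15, Abca17, Abcb1a, Abcb5, Abcc2, Abcc6, Abcc9, Abcc10, Abcc12, Abcg1, Abcg3 and Abcg8. They include Abca4 of the retina, Abca12 of the skin lipid barrier, Abcc2 of the bile canaliculus, and Abcg1, which exports sterols together with Abca1. All of subfamilies D, E and F was measured, against 8 of 15 genes in A, 8 of 10 in B, 5 of 10 in C and 3 of 6 in G. No difference is given for these 17 genes.

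With X-1, 23 of the 32 measured members (71.9%) changed against control, 8 higher and 15 lower. Over all genes tested, 56.3% changed, 28.0% higher and 28.2% lower. With X-3, 21 members (65.6%) changed, 8 higher and 13 lower, against 55.3% of all genes, 28.9% higher and 26.4% lower. The median difference of the 32 members was −0.32 with X-1 and −0.25 with X-3, beside 0.06 and 0.05 over all genes. The sign of this median turned when all member genes were taken with no filter on dim probes (0.22 and 0.090). That median takes in the 17 genes without a measured probe, whose values mostly lay at background. It is therefore no reversal among the 32 measured members. With probes averaged the median of the measured members was −0.043 for X-1. On slides 1, 2 and 3 taken singly, the members' median was −0.21, −0.35 and −0.32 for X-1 and −0.08, −0.24 and −0.45 for X-3. Every called member had the same sign on all 3 slides in both comparisons. The calls were made from these same arrays, so the shared sign is no separate support. The groups did not overlap for 10 higher and 17 lower members with X-1, where the shares over all genes were 34.7% and 33.8%, and for 9 and 13 with X-3, against 32.7% and 29.2%. The share that fell was thus above that of all genes and the share that rose was near it. Changes of at least 2-fold were found for 12 members (37.5%) with X-1 and 10 (31.2%) with X-3, beside 29.9% and 27.2% of all genes. Both counts take Abca5 by its brightest probe, although its probes disagreed. They also take Abcd2 at recorded values below background, where its bounds were only 1.51-fold with X-1 and 1.86-fold with X-3. In these bulk samples, fewer cells of a kind and less RNA per cell cannot be told apart.

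The calls of the higher members depended on how the arrays were scaled. Scaling slides 2 and 3 to spike-in RNA moved the median of all genes by −0.90 for X-1 and −0.71 for X-3 and left 1 member higher and 21 lower with X-1, and 1 higher and 20 lower with X-3. The member still higher in both was Abcc1. In this fit the adjusted p of the members followed the size of the difference alone, not each gene's own spread. Its calls thus amount to a cut-off on that size. Of the 8 higher members, the sign turned for 2 with X-1 (Abca8b and Abcc4) and 2 with X-3 (Abca1 and Abcf1), and the other values stayed above 0. Scaling to each array's median moved the median of all genes by −0.20 in both comparisons and gave 6 higher and 16 lower members with X-1, and 6 and 15 with X-3. Under spike-in scaling the members' median minus that of all genes was −0.35 with X-1 and −0.40 with X-3.

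Of the 32 members, 7 were higher with both agents, among them Abca1, Abca8b, Abcb6, Abcb9, Abcc1 and Abcc3, and 10 lower with both by their brightest probe (Abca5, whose probes disagreed, and Abca7, Abca8a, Abca9, Abcb8, Abcb10, Abcb11, Abcd2, Abcd4 and Abcg2). With X-1 alone past the threshold at the brightest probe, Abcc4 was higher and Abca2, Abca3, Abcc5 and Abcc8 were among the lower genes. The other measured probes of Abcc4 and Abca3 did not separate the agents in this way, as given below. With X-3 alone past the threshold, Abcf1 was higher and Abcb1b, Abcb4 and Abcd3 were lower. Abce1, Abcf2, Abcf3, Abcg4 and Abcg5 passed it in neither. Both comparisons used the same control arrays, so the 2 sets of calls are not independent. A call with 1 agent alone is not a difference between the agents. Compared directly, X-3 and X-1 did not differ past the threshold for Abcc5, Abcc8, Abcd3 and Abcf1 (limma adjusted p = 0.501, 0.292, 0.21 and 0.713).

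**Figure D1:**
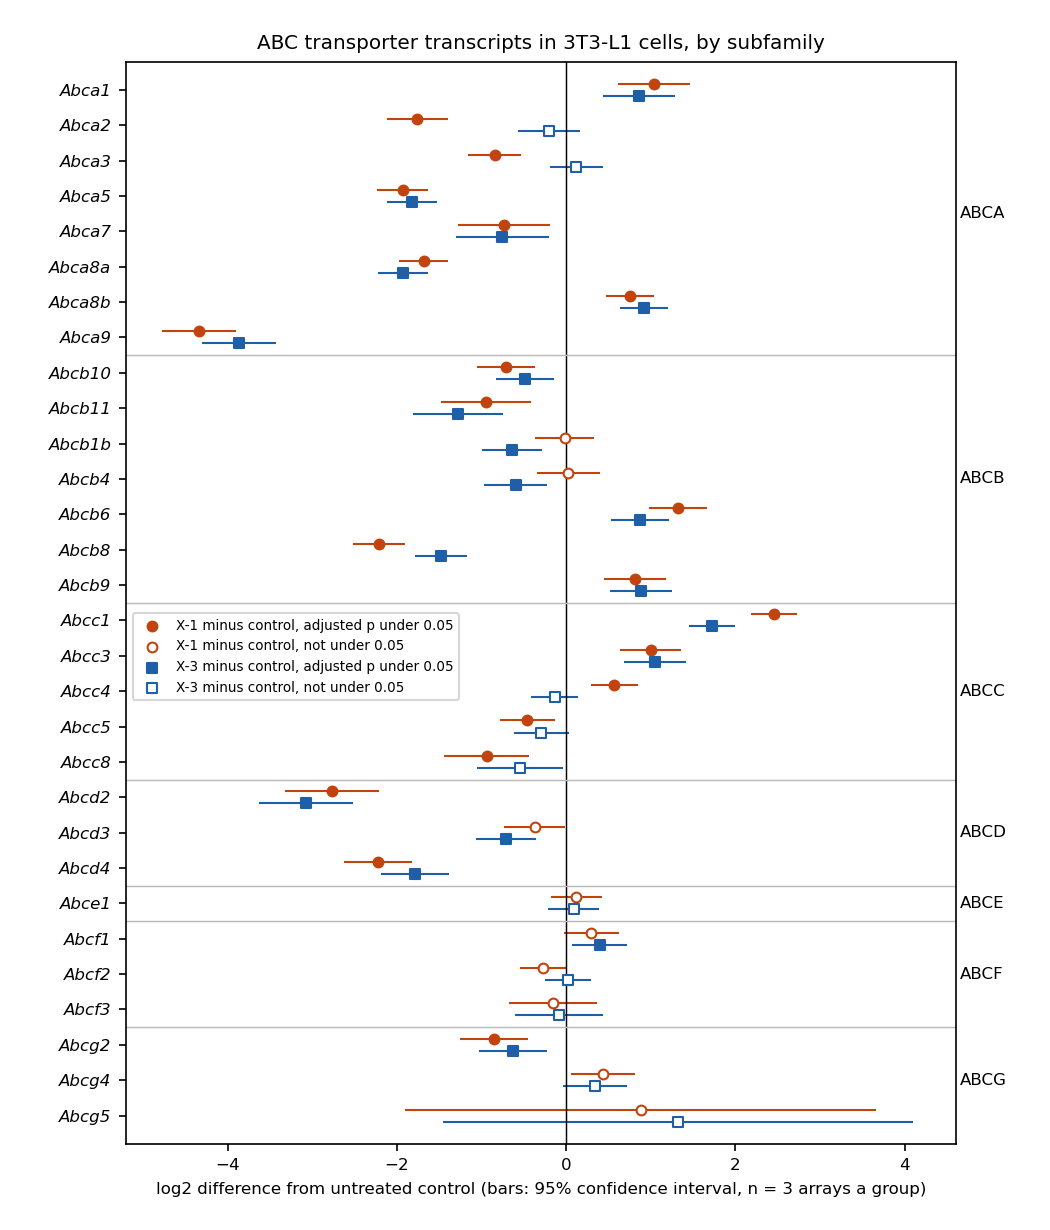
Log2 difference from untreated control for 30 of the 32 measured ABC transporter genes, grouped by subfamily, with X-1 as circles and X-3 as squares. Bars are unadjusted 95% confidence intervals from 3 arrays a group, and filled symbols have an adjusted p under 0.05. Abca9 lies farthest left and Abcc1 farthest right. Abcd2 was not well above background on treated arrays, nor Abcc8 on X-1 arrays. Those points are drawn at recorded values and overstate the smaller bounds given in the text. Under spike-in scaling, whose calls followed the size of the difference, only Abcc1 stayed higher at an adjusted p under 0.05.

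Among the 8 measured ABCA genes, 2 rose and 6 fell with X-1, and 2 rose and 4 fell with X-3, by their brightest probes and with Abca5 counted as lower. Abca1, which moves cholesterol and phospholipid out to apolipoprotein A-I, had levels of 0.78, 1.36 and 1.13 on control arrays (replicates 1, 2 and 3), 1.88, 2.20 and 2.30 with X-1, and 2.19, 1.80 and 1.87 with X-3. Every treated array was above every control array. The difference was 1.04 (SE 0.19, adjusted p = 0.00136) with X-1 and 0.86 (SE 0.19, adjusted p = 0.00421) with X-3. Spike-in scaling gave 0.10 with X-1 and turned the X-3 value to −0.12, neither past the threshold, and median scaling ended the X-3 call (0.65, adjusted p = 0.0539).

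Abca9 showed the largest fall of any member. Its levels were −0.87, −0.63 and −0.59 in control, −5.45, −4.86 and −4.77 with X-1, and −4.74, −4.47 and −4.46 with X-3. No treated array came within 3 log2 units of a control array. The probe stayed well above background on all 9 arrays, and the means differed 20.2-fold with X-1 (log2 −4.33, SE 0.19, adjusted p = 4.82e-07) and 14.5-fold with X-3 (log2 −3.86, SE 0.19, adjusted p = 1.08e-06). The size of the fall depended on the background treatment. Normexp background correction gave smaller falls, at −2.91 with X-1 and −2.76 with X-3. On X-1 replicate 1 the level was close to that array's weakest signal well above background (−5.46). Abca8a fell as well, from −0.71, −0.50 and −0.42 in control to −2.37, −2.12 and −2.19 with X-1 and to −2.50, −2.53 and −2.38 with X-3. Its groups did not overlap, with differences of −1.68 (SE 0.13, adjusted p = 6.77e-06) and −1.93 (SE 0.13, adjusted p = 4.17e-06). Abca8b went the other way, from −0.70, −0.67 and −0.68 in control to 0.17, 0.10 and −0.05 with X-1 and 0.43, 0.10 and 0.19 with X-3. It rose by 0.75 (SE 0.13, adjusted p = 0.000794) with X-1 and 0.92 (SE 0.13, adjusted p = 0.000269) with X-3, but spike-in scaling turned the X-1 value to −0.21 and left 0.11 for X-3.

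Abca8b, Abca8a, Abca9, Abca6 and Abca5 follow each other on mouse chromosome 11 with no other protein-coding gene between them in the RefSeq annotation. In this run of close relatives Abca8b rose, Abca8a and Abca9 fell, Abca6 was not measured, and the probes of Abca5 disagreed. Whether probes of the near relatives Abca8a and Abca8b, or Abcb1a and Abcb1b, also bound each other's RNA was not tested. In the files' mm9 coordinates, the probes lay at chr11:109797045-109797104 for Abca8b, chr11:109886948-109886997 for Abca8a and chr11:109962780-109962839 for Abca9, all for transcripts of the minus strand.

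The sequences before the starts of these 3 neighbours, and of Abca1, are shown because the neighbours moved in opposite directions. Each run is from the RefSeq promoter table (build GRCm38.p6), 5′ to 3′ on the gene's strand, from 250 bases before to 30 bases after the annotated start. Capitals mark matches on either strand to ACGTG, searched as the core of the hypoxia response element. In Abca8b they also mark an overlapping match to TGACNNNGC, searched as the core of the antioxidant response element. What binds at these matches was not tested.
Abca8b, chr11:109995816-109996095, minus strand: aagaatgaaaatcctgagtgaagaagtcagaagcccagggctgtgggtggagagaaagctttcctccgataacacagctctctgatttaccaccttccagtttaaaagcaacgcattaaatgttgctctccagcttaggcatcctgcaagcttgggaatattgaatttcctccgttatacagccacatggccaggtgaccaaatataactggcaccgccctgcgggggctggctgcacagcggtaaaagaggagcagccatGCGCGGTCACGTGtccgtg
Abca8a, chr11:110095908-110096187, minus strand: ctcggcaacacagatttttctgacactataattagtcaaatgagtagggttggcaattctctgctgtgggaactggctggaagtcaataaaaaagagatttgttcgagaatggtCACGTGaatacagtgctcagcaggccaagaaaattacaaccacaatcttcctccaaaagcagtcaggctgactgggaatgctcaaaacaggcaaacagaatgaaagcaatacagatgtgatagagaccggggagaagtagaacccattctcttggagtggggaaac
Abca9, chr11:110168124-110168403, minus strand: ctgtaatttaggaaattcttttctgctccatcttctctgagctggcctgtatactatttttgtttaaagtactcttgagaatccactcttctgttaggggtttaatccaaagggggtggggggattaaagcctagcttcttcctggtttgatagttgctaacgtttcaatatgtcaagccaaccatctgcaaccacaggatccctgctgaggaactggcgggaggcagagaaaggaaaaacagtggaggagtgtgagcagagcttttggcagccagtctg
Abca1, chr4:53159866-53160145, minus strand: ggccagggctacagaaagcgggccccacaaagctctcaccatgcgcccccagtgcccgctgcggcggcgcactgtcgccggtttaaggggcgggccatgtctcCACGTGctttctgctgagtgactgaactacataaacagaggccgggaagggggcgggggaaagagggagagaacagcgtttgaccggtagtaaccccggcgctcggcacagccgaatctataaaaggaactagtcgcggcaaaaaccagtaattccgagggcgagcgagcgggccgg
In Abca8a and in Abca1 the match is a palindrome read on both strands, which begins 136 and 147 bases before the start. The match in Abca8b lies after its start, and the Abca9 window held none of the motifs searched.

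The motifs were searched on both strands in windows from 250 bases before to 50 after each start. The RefSeq table held 44 windows for 37 of the 49 member genes, 28 of them for 23 of the 32 measured genes, and 32851 windows over all genes. ACGTG was in 20.5% of member windows and 19.6% of all windows. For GCGTG, the other spelling of the hypoxia core, the shares were 36.4% and 32.4%, and for TGACNNNGC they were 15.9% and 12.4%. The direct repeat bound by the liver X receptor was searched in an exact spelling alone. That spelling matched in 0 of the 44 member windows and in 5 of all windows. With matches so rare over all windows, the absence among members could not decide whether they hold such a site. Variant spellings were not searched. For the other motifs, the member shares were near those of all windows.

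Abca2 is a lipid transporter of late endosomes and lysosomes, and Abca3 loads surfactant phospholipid in the lung. At their brightest probes both fell with X-1 and not measurably with X-3. Abca2 levels were −0.62, −0.40 and −0.32 in control, −1.98, −2.23 and −2.40 with X-1, and −0.88, −0.55 and −0.53 with X-3. The X-1 arrays lay below all others, with a difference of −1.76 (SE 0.16, adjusted p = 1.88e-05). With X-3 it was −0.20 (SE 0.16, adjusted p = 0.305). Abca3 stood at −3.07, −3.08 and −3.30 in control, −3.87, −4.05 and −4.06 with X-1, and −2.82, −3.13 and −3.15 with X-3. The X-1 difference was −0.84 (SE 0.14, adjusted p = 0.000703), and the X-3 difference was 0.12 (SE 0.14, adjusted p = 0.491), where the groups overlapped. The other measured probe of Abca3 gave −0.78 with X-1 and −0.58 with X-3 (adjusted p = 0.0544 and 0.134 over all probes).

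Abca5, an endolysosomal transporter, had levels of 0.57, 0.79 and 0.89 in control, −1.36, −1.12 and −1.08 with X-1, and −0.998, −1.11 and −1.12 with X-3 at its brightest probe. That probe fell by 1.93 with X-1 (SE 0.13, adjusted p = 3.44e-06) and by 1.82 with X-3 (SE 0.13, adjusted p = 6.42e-06). Its other 3 measured probes did not follow, as described below, so no direction is given for the gene. Abca7, a phospholipid transporter related to Abca1, fell by 0.73 with X-1 (SE 0.24, adjusted p = 0.0273) and 0.75 with X-3 (SE 0.24, adjusted p = 0.0251). Leaving out control replicate 2, control replicate 3 or X-1 replicate 1 ended its X-1 call, and leaving out control replicate 2 or 3 or X-3 replicate 2 or 3 its X-3 call, with adjusted p between 0.0546 and 0.0843.

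The genes around Abca1 in sterol efflux moved in both directions. Of 16 measured genes of the liver X receptor and sterol circuit, 5 rose and 2 fell with X-1, and 7 rose and 3 fell with X-3, but under spike-in scaling 9 and 6 were lower. The counts of this and the later gene lists stand beside those of all genes. Over all genes, 28% rose and 28.2% fell with X-1, and 28.9% rose and 26.4% fell with X-3. No list was tested as a set. Nr1h3, which encodes liver X receptor alpha, fell by 1.80 with X-1 (SE 0.18) and by 1.08 with X-3 (SE 0.18). Srebf2, the master regulator of cholesterol synthesis, fell by 1.14 (SE 0.35) and 1.37 (SE 0.35). Apoe, an apolipoprotein that accepts exported cholesterol, was higher by 1.04 (SE 0.16) and 1.1 (SE 0.16).

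In subfamily B, 3 of 8 measured genes rose and 3 fell with X-1, and 3 rose and 5 fell with X-3. Among its mitochondrial members, Abcb6 rose and Abcb8 and Abcb10 fell with both agents, but spike-in scaling left the rise short of the threshold. Abcb6, a porphyrin transporter, was at 0.95, 0.84 and 0.66 in control, 2.10, 2.26 and 2.06 with X-1, and 1.96, 1.59 and 1.52 with X-3. It was higher on every treated array, by 1.32 (SE 0.15, adjusted p = 7.36e-05) and 0.87 (SE 0.15, adjusted p = 0.00107).

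Abcb8, an inner membrane transporter linked to mitochondrial iron, had levels of −0.59, −0.63 and −0.50 in control, −2.69, −3.03 and −2.62 with X-1, and −1.99, −2.01 and −2.16 with X-3. The 3 groups lay apart from each other, with X-3 between control and X-1. Its differences from control were −2.21 (SE 0.14, adjusted p = 1.96e-06) and −1.48 (SE 0.14, adjusted p = 2.39e-05). Abcb10, which supports haem synthesis, fell by 0.71 with X-1 (SE 0.15, adjusted p = 0.00335) and by 0.48 with X-3 (SE 0.15, adjusted p = 0.0234). The X-3 call of Abcb10 was lost without control replicate 1 or 2 or without X-3 replicate 2 or 3, at adjusted p up to 0.0845.

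Of the 20 measured genes of haem and iron-sulphur cluster synthesis, 12 fell and 1 rose with X-1, and 10 fell and 2 rose with X-3. Over all genes, 28.2% fell and 28% rose with X-1, and 26.4% fell and 28.9% rose with X-3. Their median difference was −0.86 and −0.48. Fech, which inserts iron into haem, fell by 1.68 with X-1 (SE 0.19) and 1.86 with X-3 (SE 0.19). Lyrm4, a partner of the cysteine desulphurase, fell by 1.65 with X-1 (SE 0.27), and its X-3 value was −0.70 (adjusted p = 0.0569). Urod, an enzyme of the same haem pathway, fell by 1.59 (SE 0.15) and 1.01 (SE 0.15).

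Abcb9, a lysosomal peptide transporter related to the TAP proteins, rose by 0.81 with X-1 (SE 0.16, adjusted p = 0.0023) and 0.88 with X-3 (SE 0.16, adjusted p = 0.00158), though spike-in scaling left 0.10 in both and median scaling ended the X-1 call (0.61, adjusted p = 0.054). Of 11 measured genes of peptide loading and MHC class I, 7 rose and 2 fell with X-1, and 6 rose and 1 fell with X-3, while spike-in scaling left 2 higher and 4 lower and 2 higher and 3 lower. The class I genes H2-T23, H2-K1 and H2-D1 were higher by 1.66 (SE 0.22), 1.44 (SE 0.15) and 1.35 (SE 0.22) with X-1 and by 1.57, 0.92 and 1.25 with X-3.

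The plasma membrane members of subfamily B were level or lower. Abcb1b, 1 of the mouse P-glycoproteins that expel drugs, had levels of 1.04, 1.19 and 1.24 in control, 0.87, 1.32 and 1.23 with X-1, and 0.70, 0.35 and 0.50 with X-3. Abcb4, the phosphatidylcholine floppase of bile and its direct neighbour on chromosome 5, was at 0.44, 0.59 and 0.61, at 0.34, 0.77 and 0.62, and at 0.22, −0.23 and −0.14. For both genes the X-1 arrays overlapped the control arrays and the X-3 arrays lay below them. With X-3 the differences were −0.64 for Abcb1b (SE 0.16, adjusted p = 0.00688) and −0.60 for Abcb4 (SE 0.16, adjusted p = 0.0123). With X-1 they were −0.02 and 0.03, with 95% intervals of −0.37 to 0.33 and −0.34 to 0.40. Abcb11, the bile salt export pump, stood at −3.79, −3.98 and −4.05 in control, −4.82, −5.04 and −4.82 with X-1, and −4.67, −5.27 and −5.70 with X-3. All its treated arrays were lower, by 0.95 with X-1 (log2 −0.95, SE 0.23, adjusted p = 0.00721) and 1.27 with X-3 (log2 −1.27, SE 0.23, adjusted p = 0.00159). The probe was dim, and normexp background correction ended the X-1 call (−0.43, adjusted p = 0.0916). With X-3 it left −0.53 (adjusted p = 0.0431).

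Subfamily C held the member with the largest rise. Abcc1, which exports glutathione and glucuronide conjugates and is also known as MRP1, had levels of 2.00, 2.04 and 2.03 in control, 4.33, 4.64 and 4.46 with X-1, and 3.85, 3.71 and 3.69 with X-3. Control arrays agreed within 0.1 log2 units, and the 3 groups lay far apart. The rise was 5.47-fold with X-1 (log2 2.45, SE 0.12, adjusted p = 6.52e-07) and 3.31-fold with X-3 (log2 1.73, SE 0.12, adjusted p = 4.94e-06). The 3 measured probes of Abcc1, of which a pair overlap, gave differences within 0.06 of each other with X-1 and 0.07 with X-3. At the overlapping pair X-3 replicate 1 stood at 1.48 and 1.42, below the other X-3 arrays at 2.64 to 3.04, but above the control arrays. It was the member whose rise held under spike-in scaling, at 1.61 and 0.96.

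Abcc3, an exporter of bile acids and glucuronides, rose from −1.77, −1.44 and −1.42 in control to −0.76, −0.44 and −0.43 with X-1 and −0.53, −0.29 and −0.65 with X-3. The groups did not overlap, with differences of 0.998 (SE 0.16, adjusted p = 0.000622) and 1.05 (SE 0.16, adjusted p = 0.000511), and spike-in scaling left 0.09 and 0.25. Abcc4, an exporter of cyclic nucleotides and prostaglandins, was at 0.10, 0.15 and 0.19 in control, 0.60, 0.79 and 0.76 with X-1, and 0.19, −0.03 and −0.13 with X-3. With X-1 it was higher by 0.57 (SE 0.12, adjusted p = 0.00356), a value that median scaling left short of the threshold (0.37, adjusted p = 0.17) and spike-in scaling turned to −0.30. The X-3 difference was −0.14 (SE 0.12, adjusted p = 0.371). These values are of the brightest probe, and the other measured probe of Abcc4 rose with both agents, by 1.65 and 1.11.

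Abcc5, another cyclic nucleotide exporter, fell by 0.46 with X-1 (SE 0.14, adjusted p = 0.0218) and was at −0.29 with X-3 (SE 0.14, adjusted p = 0.111). The X-1 call was lost without control replicate 2, control replicate 3 or X-1 replicate 2, and when its 3 probes were averaged (−0.11, adjusted p = 0.632). Abcc8, the regulatory subunit of the pancreatic potassium channel, was dim, at −5.39, −4.52 and −4.57 in control and not well above background on any X-1 array. On the level scale used here, it was at least 1.72-fold lower with X-1 (measured means −4.83 and −5.77, adjusted p = 0.0059). Such bounds set the mean of the brighter group against, for each array of the dim group, the higher of its weakest signal well above background and the probe's own. They hold on that scale alone and not under another background correction. Normexp background correction ended the X-1 call of Abcc8 (−0.42, adjusted p = 0.0977). With X-3, Abcc8 stayed above background at −0.54 (SE 0.22, adjusted p = 0.0662).

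Of 15 measured genes of glutathione and conjugation, 6 rose and 6 fell with X-1, and 3 rose and 6 fell with X-3, against 4 and 9 and 1 and 9 under spike-in scaling. Gclc, which encodes the catalytic subunit of the rate-limiting enzyme of glutathione synthesis, rose by 2.94 with X-1 (SE 0.22) and 1.89 with X-3 (SE 0.22). The sulphotransferase gene Sult1a1 fell by 2.80 with X-3 (SE 0.25) and was not well above background on any X-1 array. Gstt1, a glutathione transferase, fell by 2.08 (SE 0.12) and 1.62 (SE 0.12).

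In subfamily D, Abcd4 and Abcd2 fell with both agents. Abcd4, which works in the release of cobalamin from lysosomes, went from 1.42, 1.58 and 1.53 in control to −0.86, −0.47 and −0.81 with X-1 and 0.02, −0.26 and −0.59 with X-3. Each treated array was more than 1 log2 unit below each control array. The differences were −2.22 (SE 0.18, adjusted p = 8.63e-06) and −1.79 (SE 0.18, adjusted p = 3.8e-05). Abcd2, a peroxisomal transporter of very long-chain and polyunsaturated acyl-CoA, was at −4.91, −5.25 and −4.90 in control. It was not well above background on any treated array, where the recorded values were −7.62, −7.95 and −7.78 with X-1 and −7.49, −8.44 and −8.35 with X-3. It was therefore at least 1.51-fold lower with X-1 (adjusted p = 1.67e-05) and at least 1.86-fold lower with X-3 (adjusted p = 1.1e-05), from measured means of −5.02, −7.79 and −8.10. These p-values rest on treated values below background, the probe passed the filter through the control arrays, and normexp background correction ended both calls (−0.63, adjusted p = 0.075, and −0.68, adjusted p = 0.0613).

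Abcd3, the abundant peroxisomal membrane protein also called PMP70, fell by 0.71 with X-3 (SE 0.16, adjusted p = 0.00445). With X-1 it was at −0.37 (SE 0.16, adjusted p = 0.0713).

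Of 20 measured genes of the peroxisome, 10 fell with X-1 and the rest did not pass the threshold, while 8 fell and 2 rose with X-3. Phyh, the enzyme that starts alpha-oxidation of phytanic acid, fell by 3.15 with X-1 (SE 0.20) and 2.39 with X-3 (SE 0.20). Acaa1a, the peroxisomal thiolase, fell by 2.35 (SE 0.15) and 1.81 (SE 0.15), and Pex10, an import factor, by 1.71 with X-1 (SE 0.39). Of 7 measured genes of cobalamin handling, 1 rose and 2 fell with X-1, and 1 rose and 1 fell with X-3. Mmut, a cobalamin-dependent mutase of the mitochondrion, fell by 2.68 (SE 0.13) and 2.56 (SE 0.13), and Mtr, the cobalamin-dependent methionine synthase, rose by 1.32 (SE 0.16) and 1.76 (SE 0.16). Tcn2, which carries cobalamin in plasma, fell by 0.51 with X-1 (SE 0.16) and was at 0.28 with X-3.

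At their brightest probes, 1 of the 4 soluble members passed the threshold, and with 1 agent. Abce1, which splits ribosomes for reuse, differed by 0.12 (95% interval −0.18 to 0.42) with X-1 and 0.09 (−0.21 to 0.39) with X-3. Abcf1, which binds initiation factor 2, differed by 0.30 with X-1 (SE 0.14, adjusted p = 0.102) and rose by 0.40 with X-3 (SE 0.14, adjusted p = 0.0406). That call was lost in the fit blocked by slide (adjusted p = 0.0616) and without X-3 replicate 1 (0.27, adjusted p = 0.0744), and spike-in scaling gave −0.47. Abcf2 differed by −0.27 with X-1 and 0.02 with X-3, and Abcf3 by −0.15 and −0.09, with all adjusted p of at least 0.0844. The other measured probe of Abcf3 was at −0.82 with X-1 (adjusted p = 0.00684 over all probes), and the mean of both was lower (−0.49, adjusted p = 0.0353). Of 16 measured partners in initiation and recycling, 8 rose and 3 fell with X-1 and 6 rose and 3 fell with X-3, but under spike-in scaling 7 and 4 were lower. Ltn1, a ubiquitin ligase for stalled ribosomes, changed by −2.33 (SE 0.13) and −2.43 (SE 0.13). Etf1, the termination factor, was higher by 1.36 (SE 0.16) and 1.03 (SE 0.16).

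In subfamily G, Abcg2 was the member that changed. This exporter of drugs and urate, known as the breast cancer resistance protein, fell by 0.85 with X-1 (SE 0.18, adjusted p = 0.00275) and by 0.63 with X-3 (SE 0.18, adjusted p = 0.0141). Without control replicate 2 the X-3 value was −0.51 at an adjusted p of 0.0563. Abcg4, a sterol exporter of the brain, was at 0.43 (SE 0.17, adjusted p = 0.0513) and 0.34 (SE 0.17, adjusted p = 0.112), with the groups apart in both. Abcg5, a sterol exporter of liver and gut, was measured on X-3 arrays alone by the rule, and its control levels of −7.22, −8.39 and −2.53 were too scattered for a comparison (X-1 difference 0.88, 95% interval −1.90 to 3.66).

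**Figure D2:**
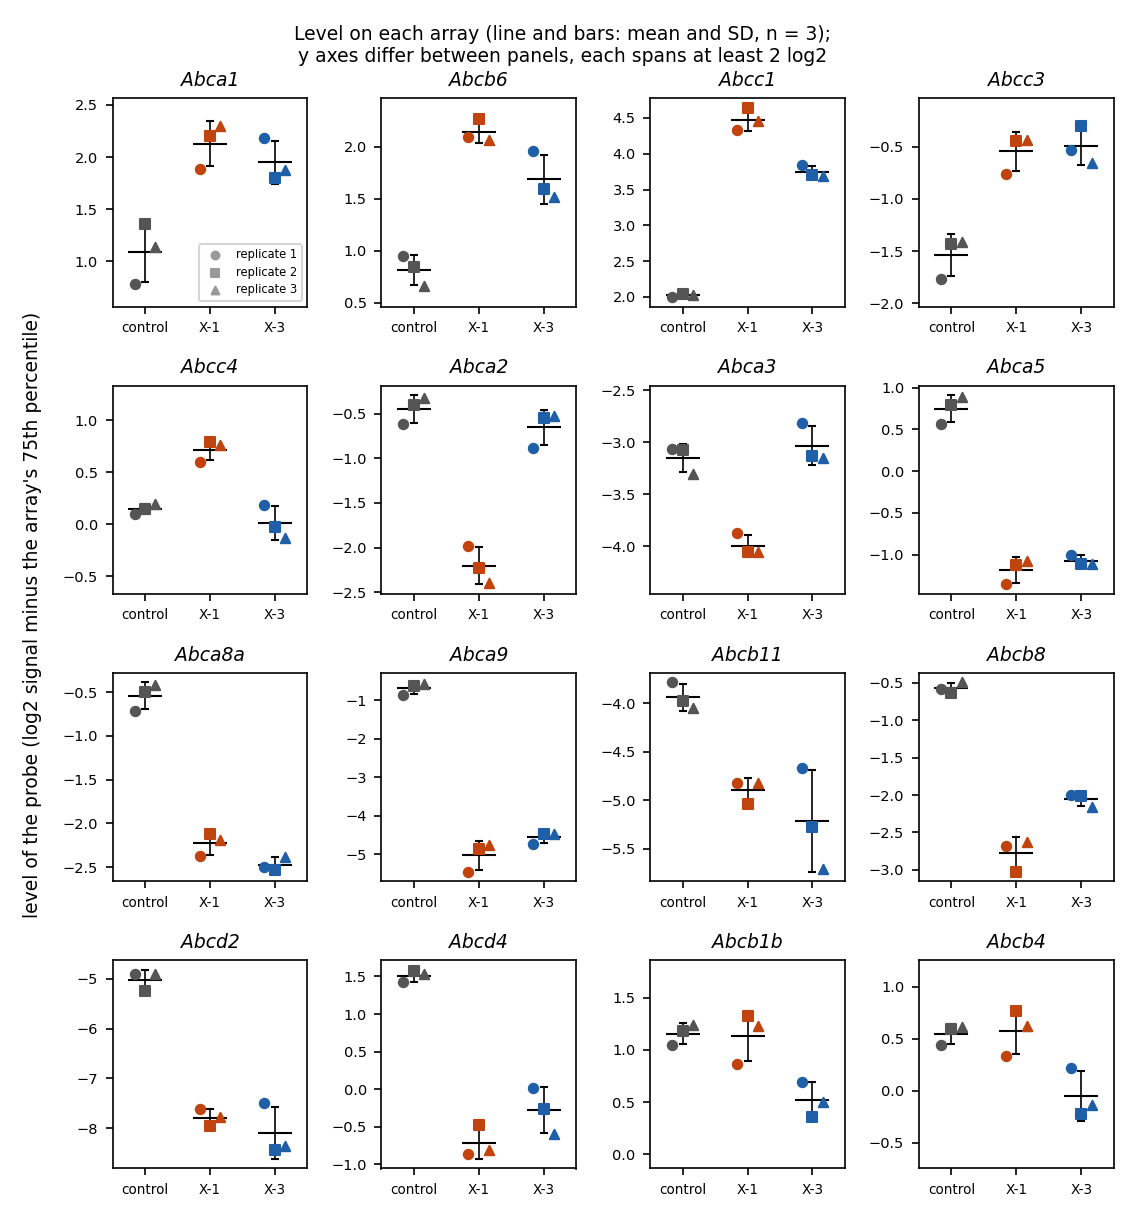
Level of the brightest measured probe of 16 ABC transporter genes on each of the 9 arrays, as log2 signal minus the array's 75th percentile. Lines and bars give the mean and SD of 3 arrays a group, and marker shapes are replicate numbers. For Abca9, Abcb8, Abcc1 and Abcd4 all treated arrays lie on one side of all control arrays, while Abcb1b and Abcb4 are low on X-3 arrays and Abca2 and Abca3 on X-1 arrays. Abcd2 was not well above background on any treated array.

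The agents were then compared with each other at the same dose and time. In X-3 minus X-1, 7 of 32 members (21.9%) passed the threshold, 3 higher and 4 lower, beside 10.5% of all genes, 6.97% higher and 3.57% lower. All 7, called from these same arrays, had the same sign on each slide. The groups did not overlap for 7 higher and 6 lower members, against 19% and 11.8% of all genes. Abca2 differed most, at 1.55 (SE 0.16, adjusted p = 0.00401) or 2.94-fold higher with X-3. Abca3 was higher with X-3 by 0.96 (SE 0.14, adjusted p = 0.00647), but its other measured probe gave 0.20, and the mean of both missed the threshold (0.58, adjusted p = 0.105). Abcb8 was higher with X-3 by 0.73 (SE 0.14, adjusted p = 0.0142). Abcc1 was lower with X-3 by 0.73 (log2 −0.73, SE 0.12, adjusted p = 0.00904) and Abcc4 by 0.71 (log2 −0.71, SE 0.12, adjusted p = 0.0111). Abcb1b and Abcb4 were both at −0.62 (SE 0.16), with adjusted p of 0.0372 and 0.043.

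Only Abca2 kept its call under all 20 alternative fits. Abcb1b kept it in 8 and Abcb4 in 7. Median scaling left 2 members higher and 0 lower, with 4 lower at an unadjusted p under 0.05. Spike-in scaling left 4 higher and 0 lower, also with 4 lower unadjusted. The spike-in calls again followed the size of the difference alone. Without X-3 replicate 1, 4 members were higher and 7 lower, and Abcb6 and Abcb11 were then among the lower ones (both −0.59). The 7 include Abcd2, which was not well above background with either agent and for which no difference between them is given. Without X-1 replicate 2 or X-1 replicate 3, 1 member was lower, and without control replicate 2, control replicate 3, X-3 replicate 2 or X-3 replicate 3, 2 were. Of the 25 members that did not pass, 23, Abcd2 among them, had a 95% interval of the difference within 1 log2 unit of 0. The interval of Abcg5 was wider (0.44, interval −2.34 to 3.22).

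**Figure D3:**
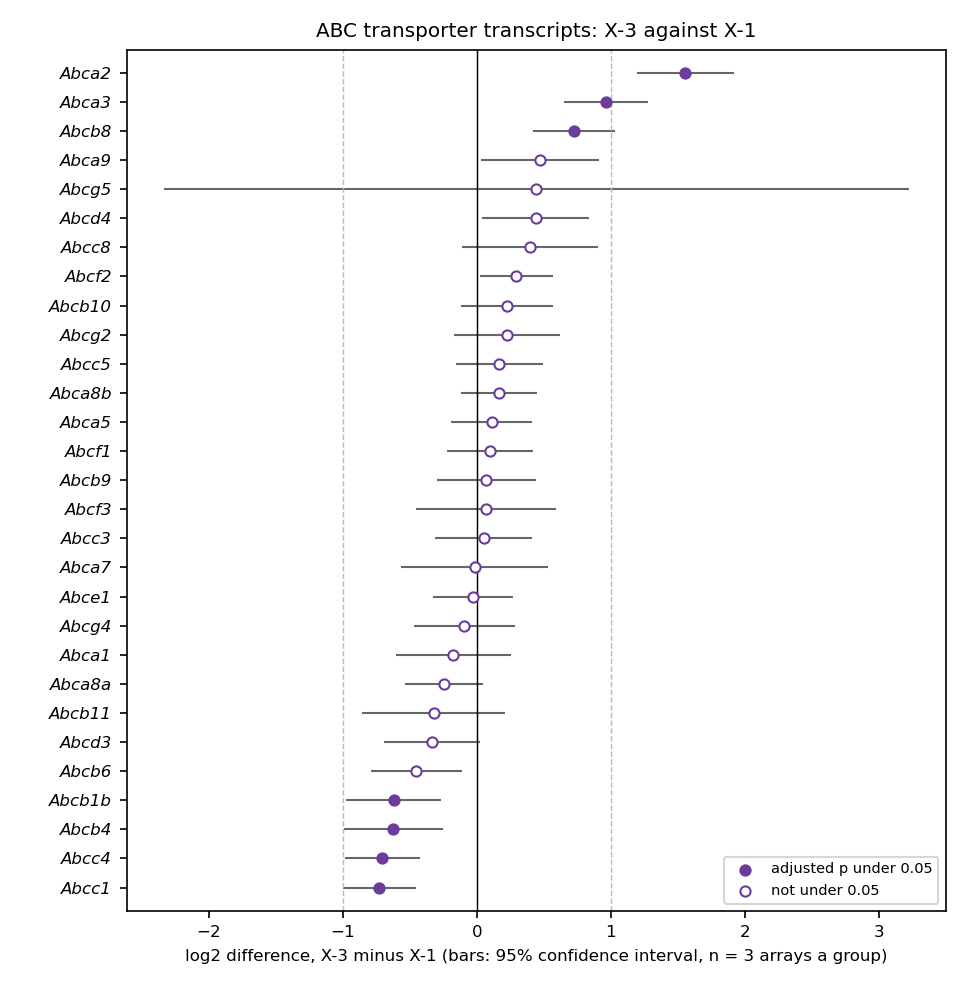
Log2 difference of X-3 minus X-1 for 29 of the 32 measured ABC transporter genes, ordered by size, with unadjusted 95% confidence intervals (3 arrays a group); filled points have an adjusted p under 0.05 and dashed lines mark 1 log2 unit. Abca2 lies at 1.55, and most members lie within 1 unit of 0; the 4 lower calls were lost under median and spike-in scaling.

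Several members had more than 1 measured probe, and some of these disagreed. Of 16 genes with at least 2 measured probes on 1 transcript, the probe nearest the 3′ end had the lower difference in 12 with X-1 and in 10 with X-3, with probes that were not well above background in a group taken at their recorded values. Over all 4614 such transcripts the shares were 68.6% and 66.9%, and the median gap between the end probes was −0.18 and −0.24, beside −0.15 and −0.13 for the members. In X-3 minus X-1 the 3′ probe was lower in 7 of 16 members and in 49.7% of all transcripts. Probes differed by over 1 log2 unit in 4 members with each agent, Abca5 and Abcc4 among them, and in 27.2% and 28.9% of all transcripts. Signs differed in 5 members with X-1 (including Abca5, Abcb1b, Abcc5 and Abcd3) and in 6 with X-3 (including Abca2, Abca3, Abca5, Abcc4 and Abce1).

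For Abca5, the probe at transcript position 7929 (mm9 chr11:110130963-110131022) gave −1.93 with X-1, while those at positions 3501, 3881 and 4771 gave 0.53, 0.87 and 1.51. With X-3 the same probes gave −1.82, −0.48, −0.02 and 1.17. The mean of the 4 probes was 0.24 with X-1 and −0.29 with X-3, neither past the threshold. For Abcc4, the probe at position 4054 rose by 1.65 with X-1 and 1.11 with X-3, against 0.57 and −0.14 at position 5465, so that their mean was higher with X-3 as well (0.49, adjusted p = 0.0034). A second probe of Abca9 was not well above background on any treated array, so its fall has a bound only and cannot be set against that of the first, although Abca9 is counted among the 4. Exon and UTR annotation of these probe positions was not used here.

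**Figure D4:**
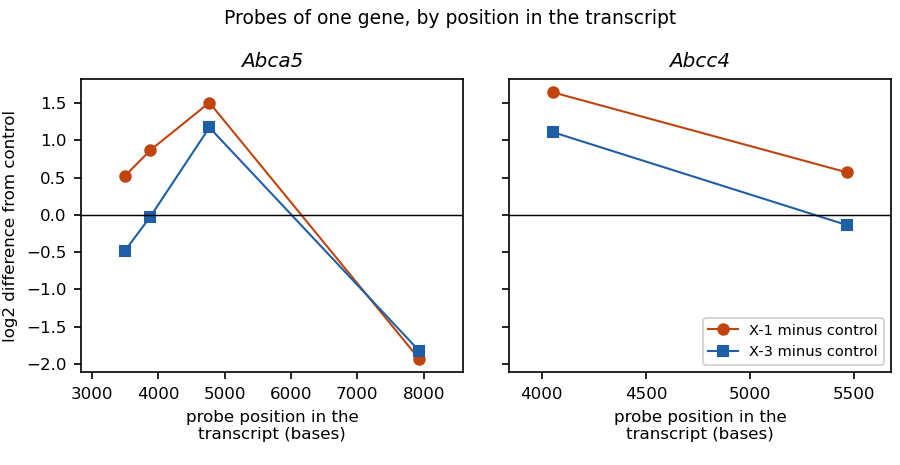
Log2 difference from control (vertical axis) of every measured probe of Abca5 and Abcc4 against the probe's position in its transcript in bases (horizontal axis), for X-1 (circles) and X-3 (squares). In both genes the probe nearest the 3′ end has the lowest value, and in Abca5 it lies below 0 while an upstream probe lies above it.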

How the data were processed

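Each array was a 1-colour Agilent array of Cy3-labelled RNA. The deposited scanner files hold spot intensity that, per the file headers, Feature Extraction 10.5.1.1 (replicate 1) or 10.7.3.1 (replicates 2 and 3) had background-subtracted; version 9.1 stands in the submitters' processing notes. A deposited table of processed values, a score per probe with SD 1 on every array and centring otherwise unstated, served as an alternative. Probe coordinates are mm9, per the file headers.

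Processed intensity was log2 transformed and each array's 75th percentile over gene probes subtracted. Of 41174 probes, 214 with outlier spots were left out; 25288 were well above background on all 3 arrays of a group, and 16736 genes were each represented by their brightest such probe. Groups came from the labels. limma 3.58.1 (R 4.3.3, lmFit and eBayes, group only, all 9 arrays) gave two-sided tests, adjusted by Benjamini-Hochberg at 0.05, and was tested on simulated data. The number of arrays limits the precision.

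Same-numbered arrays shared a slide, per the file headers. Their deviations from the group means correlated at 0.517, 0.318 and 0.271 (X-1 and control) and 0.238, 0.112 and 0.230 (X-3 and control), so the numbers pair these arrays; for X-3 and X-1 (−0.041, −0.182 and 0.156) they do not.

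The members and gene lists were chosen with earlier results of these data known. Each list's 3 called genes with the largest X-1 difference are named, and full values are given for members changed at least 2-fold or differing between the agents; some genes under these rules are not reported here. The normexp alternative used median signals, because the mean signal was in the replicate 1 files alone. Protein sequences were not used here.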

Additional observations from a re-analysis of the deposited data

How the results depend on the processing

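The 20 alternative fits changed the scaling, background, probe rule, block or arrays; medians were also taken within each slide. Among the members' calls, those of Abca2, Abca3, Abca8a, Abca9, Abcb8, Abcb10, Abcc1, Abcd4 and Abcg2 with X-1, of Abca8a, Abca9, Abcb1b, Abcb4, Abcb8, Abcb11, Abcc1, Abcd3 and Abcd4 with X-3, and of Abca2 in X-3 minus X-1 held in all 20. Normexp background ended the calls of the dim genes Abcd2 (−0.63 and −0.68), Abcb11 and Abcc8 with X-1. The members' median with X-1 was −0.52 under median scaling, −1.19 under spike-in scaling, −0.043 with probes averaged and −0.21 within slide 1. With no filter on dim probes, which takes in the 17 genes not measured, it was 0.22. With X-3 it was −0.45, −1.05 and 0.090 under median scaling, spike-in scaling and no filter, and −0.45 within slide 3. Leaving out 1 array gave −0.40 to −0.30 and −0.33 to −0.20. Spike-in scaling left 1 member higher with X-1 and 1 higher and 20 lower with X-3, and over all genes 1543 higher and 9940 lower, and 1845 and 8379. It reversed Abca8b (−0.21) and Abcc4 (−0.30) with X-1 and Abca1 (−0.12) and Abcf1 (−0.47) with X-3, and averaging probes reversed Abca5 with X-1 (0.24). Median scaling gave 3081 genes higher with X-3.

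In X-3 minus X-1, 2 members were lower with normexp, no dim filter, the replicate block on slide or only the compared groups, and 0 under median or spike-in scaling by limma (4 each at an unadjusted p under 0.05). With scan day as a term 5 members were higher. On slides 2 and 3 alone, an alternative chosen after seeing the data, 6 were higher and 10 lower. Leaving out 1 array gave 2 to 4 higher and 1 to 7 lower. Over all genes the higher count was 318 (median scaling), 2891 (slides 2 and 3), 636 (normexp), 394 (no filter) and 507 (compared groups), and the lower count 144, 270 (spike-in), 3530, 151 (no filter), 1080 (scan day) and 202 (compared groups). Leaving out 1 array gave 447 to 1699 higher and 135 to 1709 lower. The replicate block changed the call of no other member against control than Abcf1 with X-3. The cause of these differences was not tested. Signal over background limits Abcd2, Abcc8 and Abcg5 and the 17 genes not measured.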

Other observations

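Regulators of exporter genes and carriers that bring drugs into cells were read from lists chosen as the others were. Over all genes, 28% rose and 28.2% fell with X-1, and 28.9% rose and 26.4% fell with X-3. Of 12 measured receptors and factors known to control drug exporters, 5 rose and 5 fell with X-1, and 2 rose and 5 fell with X-3, beside 1 higher and 7 lower, and 8 lower, under spike-in scaling. Nr1i3, the constitutive androstane receptor, was 1.5 higher with X-1 (SE 0.27, adjusted p = 0.00112) and at 0.49 with X-3 (SE 0.27, adjusted p = 0.15). Arnt, the shared partner of the aryl hydrocarbon receptor and the hypoxia factors, fell by 1.30 with X-1 (SE 0.46) and 1.31 with X-3 (SE 0.46). Hif1a, the oxygen-sensitive hypoxia factor, was higher by 1.16 (SE 0.20) and 0.92 (SE 0.20).

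Of 14 measured uptake carriers, 4 rose and 3 fell with X-1, and 6 rose and 5 fell with X-3, beside 1 and 10, and 1 and 7, under spike-in scaling. Slc22a23, an orphan member of the organic ion carriers, was higher by 2.53 (SE 0.15) and 1.79 (SE 0.15). Slc22a2, an organic cation carrier, was well above background on control arrays and on no treated array. Slc22a4, a carrier of ergothioneine, was higher by 1.13 (SE 0.15) and 0.71 (SE 0.15). Of 9 measured channel and scaffold partners, 3 rose and 2 fell with X-1, and 1 rose and 3 fell with X-3. Slc9a3r2, a scaffold of exporters and ion exchangers, fell by 3.39 (SE 0.15) and 2.91 (SE 0.15). Pdzk1, another such scaffold, was higher by 1.19 (SE 0.22) and 1.03 (SE 0.22). Among ABC genes whose symbols fall outside the rule, Tap1, a peptide transporter of antigen processing, was at 0.41 with X-1 (SE 0.24, adjusted p = 0.185) and rose by 1.20 with X-3 (SE 0.24, adjusted p = 0.00271), while Tap2 passed in neither and Cftr was not measured.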
